A study of Homo sapiens with 6 samples.

Results

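The matrix metalloproteinases (MMP), the ADAM and ADAMTS proteases, the ADAMTS-like proteins (ADAMTSL) and the tissue inhibitors of metalloproteinases (TIMP) were compared between PC3 prostate cancer cells with and without GCNT1 overexpression. The genes were picked by symbol, as MMP, ADAM, ADAMTS, ADAMTSL or TIMP followed by a number and nothing else. This gave 34 of the 12703 genes of the count table: 9 MMP, 10 ADAM, 9 ADAMTS, 3 ADAMTSL and 3 TIMP genes. RefSeq lists 72 genes with such symbols, and those without a row, among them MMP2, MMP7, MMP9, ADAM12, ADAMTS4, ADAMTS5 and TIMP3, were not analysed here.

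The PC3 cell line was grown from a bone metastasis of a human prostate cancer. GCNT1 encodes the enzyme that adds the branch of core 2 O-glycans. The 3 GCNT1 OE libraries came from PC3 lines carrying a stable lentiviral GCNT1 insert, and the 3 control libraries from lines given a negative-control lentivirus in its place. The labels name the 3 libraries of each group as biological replicates, and whether each line grew from a single clone was not given in the sources used here.

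Total counts ranged from 11392213 to 13825704 per library. GCNT1 itself had 9, 13 and 8 counts in the control libraries and 13, 16 and 35 in the GCNT1 OE libraries, a log2 fold change of 0.98 (edgeR adjusted p = 0.0362). This value rested in large part on GCNT1 OE library 3. Without it the log2 fold change was 0.49 (edgeR adjusted p = 0.269). Without control library 1 or 3 the edgeR adjusted p was 0.0920 and 0.0944, and with DESeq2 the adjusted p was 0.0821. These values cover the RNA counts alone. The paper also examined GCNT1 in its overexpressing PC3 cells by real-time PCR, sandwich ELISA and immunocytochemistry. All 7 markers listed for PC3 epithelium had a row, with a summed level of 2404 to 2531 CPM (counts scaled to the library size) in control and 2457 to 2656 CPM in GCNT1 OE libraries. VIM, the most abundant of them, went from 1127 to 1390 CPM (log2 fold change 0.30), while KRT19 and CDH1 fell and KRT18 was lower at the adjusted p alone, at -0.18. Of the markers of other cells, CD68 was the only leukocyte marker with a row, at 83.4 to 94.4 CPM in control and 80.0 to 89.5 CPM in GCNT1 OE libraries. COL1A1 and COL3A1, the 2 of 6 fibroblast markers with a row, summed to 126 to 178 CPM and 43.0 to 46.7 CPM. KDR and PECAM1, the 2 of 4 endothelial markers with a row, went in opposite directions: KDR fell by 1.53 on the log2 scale, from 154 to 53.1 CPM, and PECAM1 rose by 1.31, from 1.77 to 4.43 CPM. Their sum, mostly KDR, was 148 to 166 CPM in control and 47.7 to 63.4 CPM in GCNT1 OE libraries. The part of these shifts in the protease results was not tested, and in bulk RNA fewer cells of a kind and less RNA per cell cannot be told apart.

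MMPs are zinc proteases that cut collagens, proteoglycans and other matrix proteins, and some are held at the cell surface. ADAMs are membrane proteases of which several release the outer parts of growth factors, receptors and adhesion proteins, a process called shedding, while ADAMTS proteases are secreted and bind to the matrix. ADAMTSL proteins have the ancillary domains of ADAMTS but no protease domain. TIMPs are small secreted proteins that block the active sites of MMPs and of some ADAMs and ADAMTSs. These proteases are studied in prostate cancer for their roles in invasion and in growth of bone metastases.

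Genes were called at an adjusted p under 0.05 (edgeR quasi-likelihood test with Benjamini-Hochberg adjustment over 12703 genes) and an absolute log2 fold change of at least 0.58. By this rule 10 of the 34 genes were called, or 29.4%, against 19.3% of all genes. MMP13, MMP17, ADAMTS3, ADAMTS6, ADAMTSL5 and TIMP4 rose. MMP1, MMP10, MMP16 and ADAMTS15 fell. The table holds genes at 1.01 CPM or more in their 3 best-covered libraries, and MMP10 and TIMP4 reached this in 1 group only. A gene listed through its higher group had to differ, so these calls are descriptions. Of the other 32 genes 8 were called, 5 higher and 3 lower, or 25.0%, against 19.3% of all genes. The rises made up 17.6% of the 34 genes, TIMP4 included, against 8.28% called higher among all genes. The falls made up 11.8%, MMP10 included, against 11.1% called lower. At the adjusted p alone 13 of the 34 were higher and 7 lower, where 28.3% of all genes were higher and 29.3% lower. The libraries of both groups did not overlap for 20 of the 34, or 58.8%, which was below the 62.5% of all genes. A share this close to that of all genes says nothing particular about the proteases.

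By family, and beside the 19.3% called among all genes, the MMP genes had 5 called of 9, with 2 higher and 3 lower, MMP10 among them. Their median absolute log2 fold change was 0.61. In the ADAM genes none of 10 was called, though 4 passed the adjusted p alone, and the median absolute log2 fold change was 0.19. The median over all genes was 0.26. The ADAMTS genes had 3 called of 9, the ADAMTSL genes 1 of 3 and the TIMP genes 1 of 3, which was TIMP4. These counts include MMP10 and TIMP4, the genes listed through their higher group. With signs kept, the median log2 fold change was -0.20 for MMP, 0.02 for ADAM, 0.26 for ADAMTS, 0.30 for ADAMTSL and 0.50 for TIMP, beside 0.00 for all genes. No test of a difference between families was made.

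**Figure D1:**
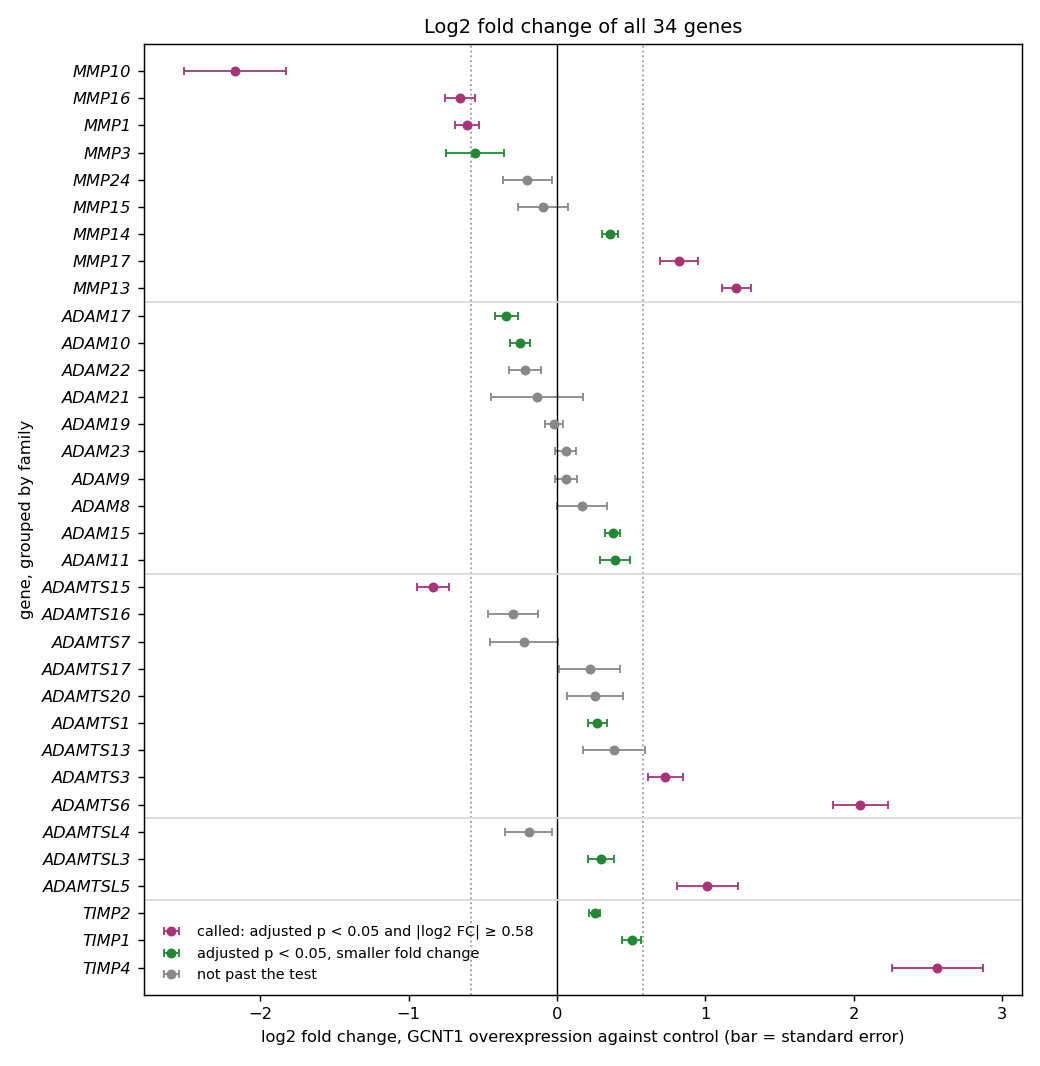
Log2 fold change of GCNT1 OE against control for each of the 34 genes, grouped by family and ordered within it, with the standard error as the bar. Dotted lines mark an absolute log2 fold change of 0.58. The 10 ADAM genes lie between -0.34 and 0.39, whereas MMP genes reach from -2.17 to 1.21.

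Promoter sequences are shown for the 3 called genes with the largest absolute changes, MMP10, ADAMTS6 and TIMP4, because each changed more than 4-fold. RefSeq promoter windows (GRCh38.p14) were at hand for 23 of the 34 genes, and the 250 bases before the start of each were searched on both strands for 3 motifs. TGAGTCA is the site of AP-1, known from promoters of inducible secreted MMPs. TATAAA is the core of the TATA box, and GGGCGG is the GC box. TATAAA was found in 1 of the 23, MMP10, and in 10.7% of all 35116 windows. GGGCGG was found in 19 of the 23 and in 42.6% of all windows, and among the 4 without it were MMP10 and ADAMTS6. The 35116 windows were not limited to genes with a row in the count table, so these are shares of unlike sets. TGAGTCA was found in none of the 23 and in 4.20% of all windows. The secreted MMP genes MMP1, MMP3 and MMP13 are not among the 23 and were not searched, so that MMP10 was the only secreted MMP in this count. The 3 sequences are the 120 bases before the start, written 5′ to 3′ on the strand of the gene, with matches in capitals.
MMP10, chr11:102780629-102780748, minus strand: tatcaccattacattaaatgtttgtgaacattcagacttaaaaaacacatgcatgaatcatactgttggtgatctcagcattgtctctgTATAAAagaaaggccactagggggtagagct
ADAMTS6, chr5:65481921-65482040, minus strand: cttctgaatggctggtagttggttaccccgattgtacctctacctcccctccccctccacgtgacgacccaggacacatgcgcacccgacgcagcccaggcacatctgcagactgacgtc
TIMP4, chr3:12158913-12159032, minus strand: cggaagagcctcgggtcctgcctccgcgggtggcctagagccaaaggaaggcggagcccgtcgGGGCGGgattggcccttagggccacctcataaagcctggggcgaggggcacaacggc
In MMP10 the TATAAA match lay 26 to 31 bases before the start. The TIMP4 window held a GC box and no TATAAA, and the shown part of the ADAMTS6 window held none of the 3 motifs. The matches are descriptions of these letters and were not related to binding.

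The secreted collagenases MMP1 and MMP13 moved in opposite directions. MMP1, the interstitial collagenase, cuts fibrillar collagens and is encoded at chr11:102789919-102798160. It had 469, 398 and 421 counts in the control libraries and 271, 325 and 307 in the GCNT1 OE libraries. Every GCNT1 OE library was below every control library. The level fell from 34.9 ± 2.71 CPM to 22.9 ± 1.03 CPM (SD, n = 3 per group), a log2 fold change of -0.61 (standard error, SE, 0.08, edgeR adjusted p = 2.43e-05). This lay just past the fold threshold: the log2 fold change was -0.55 without control library 1, -0.57 without GCNT1 OE library 3 and -0.55 with library size alone as the scaling, each with the call lost.

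MMP13, collagenase 3, degrades type II collagen and is known from cartilage and bone. It lies in the same gene cluster, at chr11:102942995-102955732. The control libraries had 401, 280 and 319 counts and the GCNT1 OE libraries 718, 914 and 837, again without overlap. The level rose from 27.1 ± 4.69 CPM to 62.6 ± 3.64 CPM (SD, n = 3), which was 2.31-fold, or 1.21 on the log2 scale (SE 0.10, edgeR adjusted p = 3.66e-07). The order of MMP1 and MMP13 thus turned. Per kilobase of exon, MMP1 went from 12.8 to 8.38 CPM and MMP13 from 9.57 to 22.1 CPM. The ratio of MMP13 to MMP1 on this scale was 0.827, 0.680 and 0.733 in the control libraries and 2.56, 2.72 and 2.64 in the GCNT1 OE libraries.

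The stromelysins, which cut proteoglycans and also activate other MMPs, were lower in GCNT1 OE cells and were expressed at low levels. MMP10, stromelysin 2 (chr11:102770502-102780628), had 17, 23 and 16 counts in control and 3, 6 and 4 in GCNT1 OE libraries. The level fell from 1.52 ± 0.286 CPM to 0.327 ± 0.0963 CPM (SD, n = 3), a log2 fold change of -2.17 (SE 0.34, edgeR adjusted p = 0.000134). GCNT1 OE library 1 was at the floor of 3 counts, which is 0.217 to 0.263 CPM at these depths, so this value rests on few counts, and the gene reached 1.01 CPM in control libraries only. MMP3, stromelysin 1 (chr11:102835801-102843609), had 50, 41 and 34 counts in control and 28, 27 and 36 in GCNT1 OE libraries. Its log2 fold change of -0.55 (SE 0.20, edgeR adjusted p = 0.0282) passed the adjusted p but not the fold threshold. It was past both when control library 3, GCNT1 OE library 1 or GCNT1 OE library 3 was left out, at -0.65, -0.58 and -0.64. The adjusted p was above 0.05 with DESeq2, at 0.11, and in edgeR without control library 1, control library 2 or GCNT1 OE library 2, at 0.133, 0.0565 and 0.112.

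The 4 genes of this cluster, all on the minus strand, therefore did not move together. The median log2 fold change of the 50 analysed genes nearest to each was between -0.30 and -0.27, so MMP13 rose among neighbours whose median was lower. Relative to that median MMP1 was at -0.34, short of the fold threshold. Summed per kilobase of exon, the cluster went from 25.0 ± 2.67 to 31.9 ± 1.51 CPM (SD, n = 3).

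**Figure D2:**
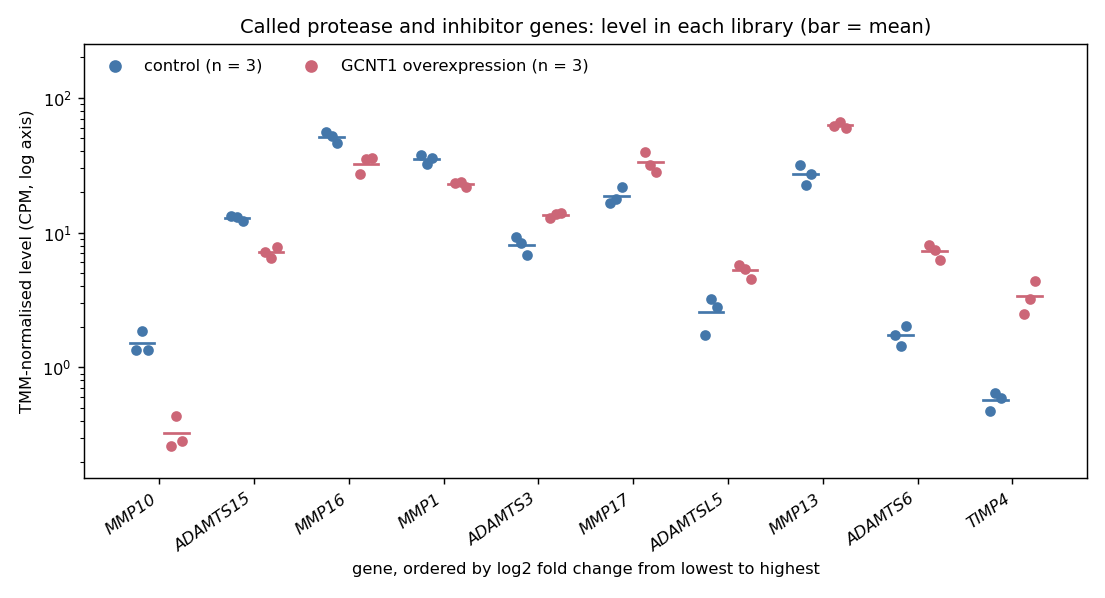
Level of the 10 called genes in each library, in CPM scaled with TMM factors on a log axis, ordered from the lowest to the highest log2 fold change, with the group mean as a bar. For every gene shown the 3 GCNT1 OE libraries lie on one side of the 3 control libraries, which the rule for calls makes likely and which was true of 62.5% of all genes.

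Among the membrane-bound MMPs 1 gene rose, 1 fell and 3 were not called. MMP17, held in the membrane by a GPI anchor (chr12:131828393-131851771), had 210, 219 and 258 counts in control and 457, 436 and 398 in GCNT1 OE libraries. It rose from 18.7 ± 2.74 CPM to 33.1 ± 5.77 CPM (SD, n = 3), a log2 fold change of 0.82 (SE 0.13, edgeR adjusted p = 0.000103). MMP16, a transmembrane MMP that can activate the zymogen of MMP2 (chr8:88032011-88327483), had 703, 645 and 545 counts in control and 312, 478 and 501 in GCNT1 OE libraries. It fell from 51.3 ± 4.90 CPM to 32.4 ± 4.74 CPM (SD, n = 3), a log2 fold change of -0.65 (SE 0.10, edgeR adjusted p = 9.32e-05). GCNT1 OE library 1 was the lowest, at 27.0 CPM beside 34.8 and 35.5 CPM, and without it the log2 fold change was -0.55 and the call was lost.

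MMP14, the main cell-surface collagenase and activator of the MMP2 zymogen, was the MMP with the highest level per length in both groups. Its counts were 1376, 1446 and 1392 in control and 1686, 1944 and 2140 in GCNT1 OE libraries. At 114 ± 4.46 CPM and 146 ± 5.10 CPM (SD, n = 3) the groups did not overlap, and the log2 fold change of 0.36 (SE 0.05, edgeR adjusted p = 7.62e-05) was below the fold threshold. MMP15 and MMP24 had log2 fold changes of -0.10 and -0.20 and did not pass (edgeR adjusted p = 0.656 and 0.314). The row of MMP24OS, which overlaps MMP24 on the opposite strand, fell by 0.89 on the log2 scale, from 527, 535 and 574 counts to 287, 328 and 330 (edgeR adjusted p = 5.15e-07). The strand setting of the counting was not given in the sources used here, so for MMP24 and other overlapping genes reads of both strands cannot be told apart. Summed per kilobase of exon, the 5 membrane-bound MMPs went from 35.7 ± 1.23 to 44.5 ± 1.27 CPM (SD, n = 3).

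The ADAM genes with a row moved little. ADAM10, the protease that sheds Notch receptors and cadherins, had 1325, 1177 and 1085 counts in control and 877, 1164 and 1191 in GCNT1 OE libraries. These counts overlap, but scaled for depth the libraries did not, at 105, 94.5 and 91.8 CPM against 75.8, 84.7 and 84.4 CPM. The log2 fold change was -0.25 (SE 0.07, edgeR adjusted p = 0.00587). ADAM17, which releases TNF and ligands of the EGF receptor, had 777, 722 and 639 counts in control and 474, 687 and 646 in GCNT1 OE libraries. Its level of 57.9 ± 3.85 CPM in control and 45.6 ± 4.53 CPM in GCNT1 OE libraries (SD, n = 3) gave a log2 fold change of -0.34 (SE 0.08, edgeR adjusted p = 0.00206).

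Both sheddases were thus lower past the adjusted p alone, by 1.19-fold and 1.27-fold, and for both the analysed genes nearby were lower too. The median log2 fold change of the 50 nearest genes was -0.22 for ADAM10 and -0.50 for ADAM17. Relative to that median ADAM17 was at 0.16, with its sign turned. IAH1, which overlaps ADAM17 on the opposite strand, fell by 0.69 on the log2 scale. The part of the neighbours and of overlapping reads in the ADAM17 value was not tested.

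ADAM15, an ADAM with an integrin-binding RGD motif in its disintegrin domain, had the highest level per length of any protease in the set. It had 4432, 4463 and 4592 counts in control and 5820, 6291 and 6546 in GCNT1 OE libraries, a log2 fold change of 0.37 (SE 0.05, edgeR adjusted p = 4.55e-05). ADAM11, which lacks protease activity, was higher by 0.39 on the log2 scale (SE 0.10, edgeR adjusted p = 0.00512), at 9.17 ± 0.160 CPM and 12.0 ± 0.892 CPM (SD, n = 3). Neither reached the fold threshold. The other two inactive ADAMs, ADAM22 and ADAM23, had log2 fold changes of -0.22 and 0.06. The remaining ADAM genes, ADAM8, ADAM9, ADAM19 and ADAM21, lay between -0.14 and 0.17. None of these passed the test. For ADAM19 the 95% interval of the log2 fold change was -0.14 to 0.10, and for ADAM21, with few counts per library, it was -0.74 to 0.47.

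ADAMTS6 had the largest rise of the ADAMTS genes. This secreted protease is known to act on fibrillin microfibrils and is encoded at chr5:65148738-65481920. It had 22, 18 and 24 counts in control and 93, 102 and 88 in GCNT1 OE libraries, so that the lowest GCNT1 OE library was well above the highest control library. The level rose from 1.74 ± 0.292 CPM to 7.23 ± 0.915 CPM (SD, n = 3), which was 4.13-fold, or 2.04 on the log2 scale (SE 0.18, edgeR adjusted p = 8.15e-07). Per kilobase of exon it was the lowest of the 34 genes in control, at 0.203 CPM, and 24th in GCNT1 OE libraries, at 0.844 CPM.

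ADAMTS3, a procollagen N-propeptidase that also cuts VEGF-C (chr4:72280969-72569221), had 117, 104 and 80 counts in control and 149, 189 and 196 in GCNT1 OE libraries. It rose from 8.14 ± 1.28 CPM to 13.5 ± 0.553 CPM (SD, n = 3), a log2 fold change of 0.73 (SE 0.12, edgeR adjusted p = 0.000145). ADAMTS15, a protease of versican and aggrecan (chr11:130448645-130476645), went the other way. It had 168, 162 and 143 counts in control and 83, 89 and 111 in GCNT1 OE libraries, and fell from 12.8 ± 0.648 CPM to 7.17 ± 0.694 CPM (SD, n = 3). The log2 fold change was -0.84 (SE 0.11, edgeR adjusted p = 2.55e-05), and the groups did not overlap. The 50 genes nearest to ADAMTS15 had a median of -0.36, and relative to it the value was -0.48, short of the fold threshold.

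Of the 6 ADAMTS genes not called, ADAMTS1, a versican protease with the highest level per length of the family, passed the adjusted p alone. It was higher by 0.27 on the log2 scale (SE 0.07, edgeR adjusted p = 0.00329), at 80.8 ± 4.79 CPM and 97.5 ± 6.96 CPM (SD, n = 3). The 50 genes around it had a median of 0.38, which was larger than its own value. ADAMTS7, ADAMTS13, ADAMTS16, ADAMTS17 and ADAMTS20 lay between -0.30 and 0.39 and did not pass. ADAMTS16 had a value of -0.30 among neighbours with a median of -1.08, the lowest neighbourhood of any gene of the set.

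**Figure D3:**
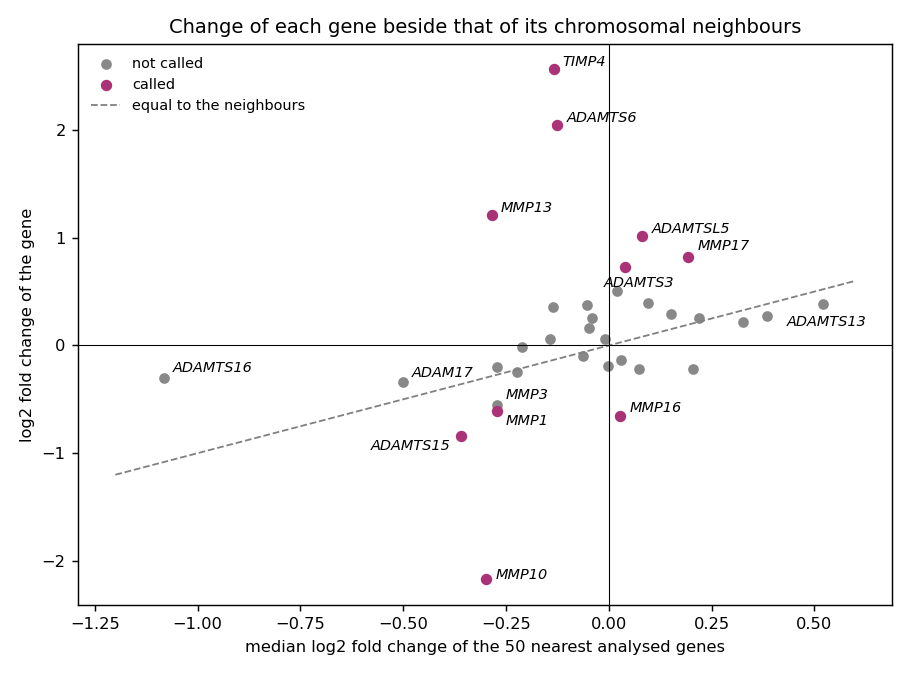
Log2 fold change of each of the 34 genes (vertical axis) against the median log2 fold change of the 50 analysed genes nearest to it on the chromosome (horizontal axis), with called genes in purple. TIMP4, ADAMTS6 and MMP13 lie above 1 with neighbours below 0, and MMP10 lies at -2.17 with neighbours at -0.30.

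Of the ADAMTS-like genes, ADAMTSL5, which encodes a protein known to bind fibrillins and heparin (chr19:1505022-1513019), rose. It had 22, 40 and 33 counts in control and 67, 74 and 64 in GCNT1 OE libraries. The level went from 2.58 ± 0.754 CPM to 5.24 ± 0.640 CPM (SD, n = 3), a log2 fold change of 1.01 (SE 0.20, edgeR adjusted p = 0.000903). ADAMTSL3 had 602, 555 and 460 counts in control and 546, 768 and 815 in GCNT1 OE libraries. Its log2 fold change of 0.30 (SE 0.09, edgeR adjusted p = 0.0120) passed the adjusted p alone, and its groups overlapped. Without control library 3 or GCNT1 OE library 3 its adjusted p was 0.0504 and 0.0698. ADAMTSL4 had a log2 fold change of -0.19 and did not pass (edgeR adjusted p = 0.322).

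All 3 TIMP genes with a row were higher at the adjusted p in GCNT1 OE cells, as were 28.3% of all genes, and TIMP4 passed the fold threshold too. TIMP4, the TIMP with the most restricted expression in tissues (chr3:12153068-12158912), had 6, 8 and 7 counts in control and 29, 44 and 62 in GCNT1 OE libraries. It rose from 0.570 ± 0.0850 CPM to 3.37 ± 0.955 CPM (SD, n = 3), which was 5.91-fold, or 2.56 on the log2 scale (SE 0.30, edgeR adjusted p = 1.12e-05). TIMP4 reached 1.01 CPM in GCNT1 OE libraries only. Its neighbours had a median of -0.13.

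TIMP1, a broad MMP inhibitor that also inhibits ADAM10 (chrX:47582436-47586789), had 4625, 4581 and 5047 counts in control and 6751, 7303 and 7487 in GCNT1 OE libraries. It went from 387 ± 34.2 CPM to 549 ± 30.1 CPM (SD, n = 3), a log2 fold change of 0.50 (SE 0.06, edgeR adjusted p = 1.51e-05), just short of the fold threshold. TIMP2, which inhibits MMP2 and also takes part in its activation by MMP14 (chr17:78852977-78925387), had 8493, 8362 and 8035 counts in control and 9383, 11093 and 11246 in GCNT1 OE libraries. It went from 675 ± 4.06 CPM to 805 ± 7.16 CPM (SD, n = 3), a log2 fold change of 0.25 (SE 0.04, edgeR adjusted p = 9.81e-05). TIMP1 and TIMP4 lie inside SYN1 and SYN2 on the opposite strand, and SYN1 and SYN2 have no row and were not analysed here.

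Levels per kilobase of exon placed the inhibitors above the proteases. TIMP1 was first of the 34 genes in both groups, at 268 CPM per kilobase in control and 379 in GCNT1 OE libraries, and TIMP2 second, at 109 and 130. ADAM15 followed at 55.6 and 72.1, and MMP14 was 4th at 24.7 and 31.6. TIMP4 moved from the 29th to the 15th place, at 0.478 and 2.82, and still made up little of the summed TIMP level. Its share was 0.110%, 0.148% and 0.122% in the control libraries and 0.391%, 0.536% and 0.737% in the GCNT1 OE libraries.

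The summed levels of every family were higher in GCNT1 OE cells, as means over the libraries. Abundant genes weigh most in these sums, so they do not describe a rise across each family. A negative log2 fold change was found in 6 of 9 MMP, 5 of 10 ADAM and 3 of 9 ADAMTS genes. It was found in 1 of 3 ADAMTSL and 0 of 3 TIMP genes. Per kilobase of exon, ADAM15 alone went from 55.6 to 72.1 CPM, TIMP1 from 268 to 379 and ADAMTS1 from 11.1 to 13.3. On the same scale the TIMP genes summed to 377 ± 24.3 in control and 512 ± 21.0 CPM per kilobase in GCNT1 OE libraries (SD, n = 3). The MMP genes summed to 60.7 ± 2.22 and 76.4 ± 1.29, the ADAM genes to 93.5 ± 1.58 and 109 ± 1.75. Sums for the ADAMTS genes were 16.6 ± 0.995 and 19.5 ± 1.12, and for the ADAMTSL genes 5.97 ± 0.380 and 7.62 ± 0.422. The ratio of summed TIMP to summed MMP level was 5.84, 6.24 and 6.56 in control and 6.91, 6.53 and 6.65 in GCNT1 OE libraries, and the groups overlapped. A two-sided exact permutation test of 3 against 3 libraries cannot give a p below 0.10, so no such test was made on sums or ratios.

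**Figure D4:**
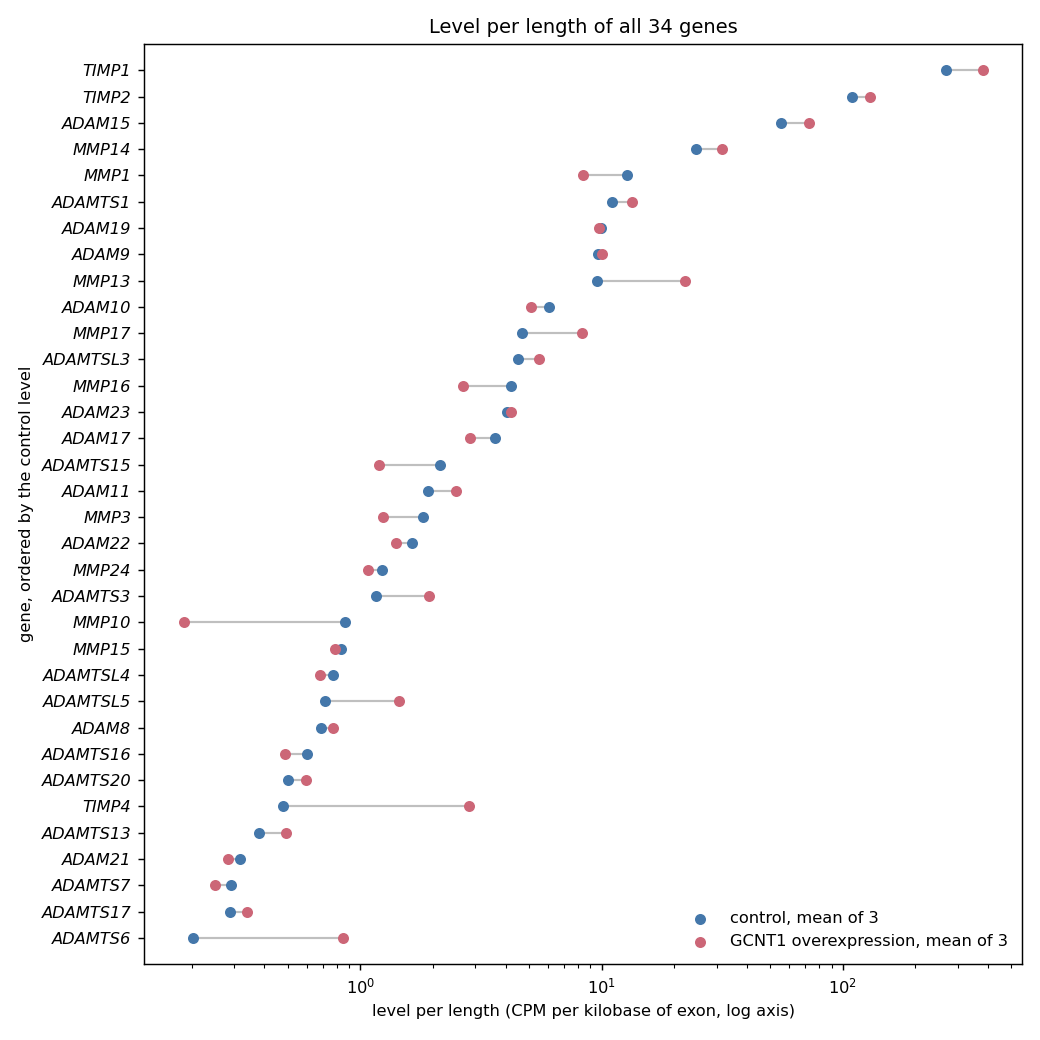
Level per length of each of the 34 genes, as the group mean in CPM per kilobase of exon on a log axis, ordered by the control level. TIMP1 and TIMP2 lie at the top in both groups, and the widest gaps between the groups are those of MMP10, TIMP4 and ADAMTS6.

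Genes known to act with these proteases were taken from lists written from general knowledge, but with earlier results of these data known, so their shares of calls are descriptions and not independent evidence. Of 20 genes that activate or restrain MMPs outside the TIMPs, 13 had a row, and 3 were called higher and 1 lower (30.8%, against 19.3% of all genes), with a median log2 fold change of 0.13. PLAU, the urokinase that generates plasmin, rose from 430 ± 13.9 CPM to 921 ± 78.7 CPM (SD, n = 3), by 1.10 on the log2 scale (SE 0.06, edgeR adjusted p = 4.79e-09). SPINT2, an inhibitor of serine proteases, fell from 172 ± 7.81 CPM to 94.4 ± 6.72 CPM, a log2 fold change of -0.87 (SE 0.06, edgeR adjusted p = 7.23e-08). The other two called genes, looked up after their values were seen, were FURIN, the proprotein convertase that activates membrane-bound MMPs, at 0.85 and TFPI2, an inhibitor of serine proteases, at 0.90.

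Of 12 genes listed for the regulation of ADAM10 and ADAM17, 11 had a row, with 1 called higher and 2 lower (27.3%) and a median of -0.17. TSPAN15, a tetraspanin partner of ADAM10, rose from 39.4 ± 3.06 CPM to 86.8 ± 2.76 CPM (SD, n = 3), by 1.14 on the log2 scale (SE 0.07, edgeR adjusted p = 1.12e-08). The called genes that were lower were podosome adaptors and not regulators of shedding in the strict sense, and of the other 9 genes TSPAN15 was the only one called. SH3PXD2A, which encodes TKS5, had 319, 354 and 265 counts in control and 21, 18 and 25 in GCNT1 OE libraries. It fell by 3.96 on the log2 scale (SE 0.15, edgeR adjusted p = 2.26e-10). Its relative SH3PXD2B, looked up after its value was seen, fell by 0.82.

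Of 36 proteins listed as shed by ADAM10 or ADAM17, 26 had a row, and 4 were called higher and 4 lower (30.8%), with a median of -0.03. NOTCH1, a receptor cut by ADAM10, rose from 18.1 ± 0.540 CPM to 42.7 ± 2.26 CPM (SD, n = 3), by 1.24 on the log2 scale (SE 0.07, edgeR adjusted p = 1.55e-08). The 50 genes nearest to NOTCH1 had a median of 0.61. BTC, which encodes the EGF receptor ligand betacellulin, fell from 15.9 ± 1.07 CPM to 8.25 ± 0.677 CPM, by 0.95 on the log2 scale (SE 0.10, edgeR adjusted p = 4.96e-06). Of the EGF receptor ligands on this list, TGFA, EGF and EREG rose, by 0.92, 0.93 and 0.86, while AREG had a log2 fold change of -0.64 and fell with BTC. HBEGF, at 0.23, was not called (edgeR adjusted p = 0.0592). EPHB2, an ephrin receptor, fell by 0.68, and CDH1, the E-cadherin gene, fell by 1.71. These genes other than NOTCH1 and BTC were looked up after their values were seen.

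The list of glycosylation enzymes, substrates and partners of ADAMTS and ADAMTSL proteins had the highest share of calls of these lists, all of them among the substrates and partners. Of its 22 genes 14 had a row, and 1 was called higher and 8 lower (64.3%), with a median of -0.68. This share includes VCAN and BGN, which reached 1.01 CPM in 1 group only and so had to differ. VCAN, the versican proteoglycan that ADAMTS1 and ADAMTS15 cut, had 4 counts in every control library and 30, 50 and 48 in GCNT1 OE libraries, and so reached 1.01 CPM in the latter only. It rose by 3.28 on the log2 scale (SE 0.30, edgeR adjusted p = 9.31e-07). LTBP1, a microfibril protein that holds latent TGF-beta, fell from 365 ± 12.9 CPM to 163 ± 11.9 CPM (SD, n = 3), a log2 fold change of -1.16 (SE 0.06, edgeR adjusted p = 2.33e-09). The others that fell, looked up after their values were seen, were FBN1, FBN2, LTBP4, FN1, COL1A1, COL3A1 and BGN, between -1.94 and -0.59. BGN had 32, 22 and 33 counts in control and 11, 13 and 12 in GCNT1 OE libraries. It reached 1.01 CPM in control libraries only. The glycosylation enzymes POFUT2 and B3GLCT were not called and were higher at the adjusted p alone, by 0.39 and 0.47 (edgeR adjusted p = 0.000177 and 0.000769), as were LTBP2 and THBS1, by 0.36 and 0.41. COL1A1 and COL3A1 are also the fibroblast markers given above. Of 8 further metzincin proteases 2 had a row, BMP1 and TLL1, and neither was called.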

How the data were processed

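RNA from 6 PC3 lines, 3 per group, was sequenced by the authors as stranded mRNA libraries. The authors used Cutadapt for trimming, HISAT2 for alignment to hg38 and featureCounts for counting, and deposited the raw counts per gene, neither normalized nor pooled. The annotation, strand setting and low-count filter are not given in the sources used here. In its 3 best-covered libraries each gene reached 1.01 CPM or more. Total counts were 12125672 to 12755888 in control and 11392213 to 13825704 in GCNT1 OE libraries, and a floor of 3 counts covers counting error only.

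Entrez identifiers were matched to RefSeq symbols for 12661 of 12703 genes. The counts were fitted with edgeR 4.0.16 under R 4.3.3 (TMM factors, filterByExpr, quasi-likelihood test of the 2 groups, Benjamini-Hochberg adjustment over 12703 genes, none removed), after a check on simulated counts. Intervals are log2 fold change ± normal 95% limits. Gene positions are from RefSeq (GRCh38.p14). Exon lengths and overlaps were taken from GENCODE 44 in Python 3.11.15, and levels per length were TMM-scaled CPM per kilobase of exons. Alternatives were library size alone, RLE factors, limma-voom (limma 3.58.1), DESeq2 1.42.0, no filter, at least 10 counts in every library, the replicate block, values relative to the 50 nearest genes, and each library left out. Each called gene, TIMP1, TIMP2, ADAM10, ADAM17 and MMP14 were given per library, and each related list is represented by its called genes of lowest p, 1 per direction. Other genes are given by log2 fold change or, where a result turned on them, by their counts. The genes and lists were chosen with earlier results of these data known.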

Additional observations from a re-analysis of the deposited data

How the results depend on the processing

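Under 14 alternatives the number of genes called higher was 5 or 6, and the number called lower was 3 to 5 with a library left out and 4 or fewer otherwise. Relative to the 50 nearest genes it was 2, with ADAMTS15 and MMP1 lost. The filter of at least 10 counts in every library removed MMP10, TIMP4 and ADAM21. With the replicate block 6 genes were called higher and 4 lower, the same 10 genes. Same-numbered libraries showed no sign of pairing, with deviations correlated at -0.27, -0.00 and -0.11. Their mean was -0.13, beside 0.06 for libraries of other numbers. With 3 libraries per group these values cannot show whether libraries shared a batch. Relative to the 50 nearest genes the sign turned for ADAM17 (0.16), ADAM19 (0.19), ADAMTS1 (-0.11), ADAMTS13 (-0.14), ADAMTS16 (0.78), ADAMTS17 (-0.11) and MMP24 (0.072), by construction from the neighbours' medians, and with library size alone for ADAM19 (0.039). With a library left out the log2 fold change was -0.049 to 0.036 for ADAM19, -0.31 to 0.063 for ADAM21 and -0.0046 to 0.14 for ADAM9, none of which was called. Of 473 combinations of a gene and an alternative, 453 kept the direction and the call, 6 lost the call, 3 gained one and 11 changed sign. The 453 include the fit with no filter, which repeated the main fit because the main filter removed no gene. Values relative to the 50 nearest genes kept the adjusted p of the main fit, so their calls are not a new test. Library size alone moved the median of all genes by 0.06. Depth limits MMP10 in GCNT1 OE and TIMP4 in control libraries, where each library had fewer than 10 counts.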

Other observations

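The count table held 3 rows whose symbols start like these genes but carry a letter or suffix, so that they were left out of the 34. ADAM1A, a pseudogene, had 24, 36 and 36 counts in control and 39, 43 and 45 in GCNT1 OE libraries, a log2 fold change of 0.31 (edgeR adjusted p = 0.206). MMP25-AS1, a long noncoding RNA antisense to MMP25, had a log2 fold change of -0.10 (edgeR adjusted p = 0.732). MMP24OS was the only one of the 3 called, and its values stand beside those of MMP24.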
